A study of Mus musculus with 19 samples.

Results

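The mammalian *Period* genes *Per1*, *Per2* and *Per3* were followed in the corneal epithelium and conjunctiva of mice that ate freely or were calorie restricted. The members were the rows carrying these 3 gene symbols, 3 of the 24557 genes listed in each tissue's table, and all 3 had enough reads to be tested in both tissues. The 19 RNA sequencing libraries came from C57BL/6 mice (C57BL/6 J in the methods), all female, with no transgene or other allele named. The sample titles give 6 months of age, but by the methods restriction began at about that age and lasted for months. By that account the mice were older than this at collection, and the titles may give the age at its start. All titles, AL and CR alike, also carry a further label ending in W, whose meaning is not given in the sources used here. In the cornea, 5 libraries were from mice fed ad libitum (AL) and 5 from mice on calorie restriction (CR), and in the conjunctiva there were 4 AL and 5 CR libraries by the labels, whereas a legend of the study swaps these sizes. The corneal sample was epithelium scraped from the surface, whereas the conjunctiva was excised whole, with its stroma, vessels and attached tissue. The CR mice received a stepped-down ration once a day shortly before lights-off, so the amount of food and the hour of feeding changed together and cannot be told apart. The hour at which tissue was taken is not given in the sources used here. The study kept 2 cohorts of mice, and the cohort of a library is not in its labels. In the cohort kept at Baylor College of Medicine, the CR chow also held more vitamins and micronutrients than the AL chow. For mice of that cohort this difference too cannot be told apart from the others.

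PER proteins are the negative limb of the circadian clock. The activators BMAL1 (encoded by *Arntl*) and CLOCK bind E-box elements and switch on the *Per* and *Cry* genes, and the PER and CRY proteins then return to the nucleus and shut that activation down. *Per1* and *Per2* are also switched on quickly by light, hormones and feeding through cyclic AMP response elements (CREs) and glucocorticoid receptor sites, whereas *Per3* is thought to be dispensable for the core loop. The epithelia of the ocular surface hold clocks of their own, and the transcripts rise and fall over the day. A tissue taken at 1 moment therefore gives a level in which the height of a rhythm and its timing cannot be told apart.

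*Per1* lies on the plus strand of chromosome 11 (69095217 to 69109960, GRCm38), *Per2* on the minus strand of chromosome 1 (91415982 to 91459324) and *Per3* on the minus strand of chromosome 4 (151003652 to 151044665). RefSeq promoter windows (GRCm38.p6), each running from 250 bases before a transcription start to 50 bases after it, were at hand for 2 of the 3 genes. They are shown because the E-box, the D-box (the site of DBP, TEF and HLF) and the CRE are the elements through which the regulators described further on act. Capitals mark an exact match, on either strand, to the E-box CACGTG, the CRE core TGACG, the D-box TTATGTAA or the ROR element AGGTCA, which reads TGACCT on the other strand.
Per1 first window, chr11:69098699-69098998, plus strand: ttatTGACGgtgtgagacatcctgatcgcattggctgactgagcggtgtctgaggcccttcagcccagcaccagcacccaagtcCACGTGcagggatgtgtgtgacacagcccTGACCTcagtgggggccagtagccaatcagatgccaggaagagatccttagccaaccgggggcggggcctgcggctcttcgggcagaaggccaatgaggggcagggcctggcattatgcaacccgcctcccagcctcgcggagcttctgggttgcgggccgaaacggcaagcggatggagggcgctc
Per1 second window, chr11:69099902-69100201, plus strand: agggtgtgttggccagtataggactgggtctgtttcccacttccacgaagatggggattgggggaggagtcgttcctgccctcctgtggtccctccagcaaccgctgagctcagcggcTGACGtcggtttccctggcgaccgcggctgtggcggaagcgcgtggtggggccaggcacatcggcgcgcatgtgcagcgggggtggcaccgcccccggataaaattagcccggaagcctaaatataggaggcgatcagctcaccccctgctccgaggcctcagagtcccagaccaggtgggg
Per3 window, chr4:151044616-151044915, minus strand: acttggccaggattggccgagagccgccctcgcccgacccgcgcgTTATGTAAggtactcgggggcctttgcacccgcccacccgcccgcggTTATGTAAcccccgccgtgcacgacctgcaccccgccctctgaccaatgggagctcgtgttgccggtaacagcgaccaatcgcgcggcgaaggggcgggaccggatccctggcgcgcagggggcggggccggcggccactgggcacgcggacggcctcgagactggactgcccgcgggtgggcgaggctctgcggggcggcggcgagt

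The first *Per1* window held an E-box that began 166 bases before the start, a CRE core at 246 bases before it and a ROR element at 137 bases before it. The second *Per1* window, at a start further into the gene, held a CRE core at 132 bases before its start and no E-box. The *Per3* window had neither, but carried the D-box TTATGTAA at 205 and at 158 bases before the start. Over 32851 mouse promoter windows of the same length, the E-box was present in 7.15%, the CRE core in 20.8%, the ROR element in 16.3% and this D-box in 0.938%. The other sequences searched, with no match in the 3 windows, were CACGTT (4.68% of all windows), the full CRE TGACGTCA (1.79%), the D-box TTACGTAA (0.119%) and the glucocorticoid response element (0.00913%). These matches describe the letters of the windows and do not show binding.

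Libraries held 10354125 to 14681223 gene-assigned reads for corneas and 10726717 to 14433441 for conjunctivas. *Krt12*, the keratin of corneal epithelium, ranged from 179846 to 340965 normalized counts in the corneal libraries and from 436 to 5139 in the conjunctiva. The goblet cell mucin *Muc5ac* was at most 43.3 in the cornea and at least 2328 in the conjunctiva. Both tissue labels matched these markers, but not every listed keratin followed its tissue. *Krt14*, listed for corneal epithelium, had a median of 5687 in corneas and 14053 in conjunctivas. *Krt13*, listed for conjunctival epithelium, had medians of 24775 and 18968. The other genes of both lists had the higher median in the tissue they mark. Of the other cell types, the summed count of 6 macrophage markers was lower under CR in both tissues (298 to 386 in AL and 139 to 297 in CR corneas; 2562 to 3233 in AL and 1783 to 2388 in CR conjunctivas; two-sided exact permutation p = 0.0079 and 0.0159). Both were the smallest p values that these group sizes allow, and neither was adjusted over the other marker sums. All 6 fibroblast markers had a lower mean under CR in the conjunctiva (sums of 39250 to 58882 in AL and 25864 to 51295 in CR, exact permutation p = 0.0635). The lacrimal gland sum was higher under CR there (316 to 430 in AL and 381 to 1020 in CR, exact permutation p = 0.0476). In corneas the lacrimal gland sum reached 12459 in AL 1 against 304 to 707 under CR, and the skeletal muscle sum ran from 10518 to 104562 over the conjunctivas. Cornea AL 1 also had the highest *Per1* of the AL corneas (124 normalized counts). With any 1 library left out, the log2 change of *Per1* in the cornea stayed between 2.43 and 2.89. Lymphocyte markers summed to at most 8.24 in the cornea. The part of these cells in the *Per* differences was not tested, and in bulk tissue fewer cells of a type and less RNA per cell cannot be told apart. Corneal libraries AL 4 and CR 1 stood apart from their groups, with 45.2% of genes at 0 reads against 38.7% to 40.7% in the other AL corneas, and 39.9% against 42.7% to 47.6% in the other CR corneas. Without both, the log2 changes in the cornea were 2.86 for *Per1*, 3.09 for *Per2* and 1.01 for *Per3*, and each still passed.

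In the cornea, all 3 *Per* transcripts were higher under CR, with the largest fold for *Per2* and the smallest for *Per3*. A value here is a normalized count, the reads of a gene divided by a library's size factor. *Per1* stood at 124, 59.0, 58.9, 91.1 and 34.0 normalized counts in the 5 AL corneas and at 341, 545, 631, 356 and 356 in the 5 CR corneas. The lowest CR library was well above the highest AL library. The mean went from 73.5 ± 34.9 to 446 ± 134 (SD, n = 5 each). Taken from mean log2 values, as all fold changes here, the increase was 6.35-fold (log2 change 2.67 ± 0.30 SE, limma adjusted p = 2.5e-04). With 33 to 113 reads, AL *Per1* was the least deeply counted of the 12 sets of values described here.

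*Per2*, the member whose loss most disturbs rhythms in mice, had corneal normalized counts of 129.8, 97.2, 196, 207 and 141 under AL and of 1272, 1147, 1524, 969 and 1128 under CR. The diets were separated by a wide gap. The increase was 7.99-fold (95% confidence interval 6.06 to 10.5; log2 change 3.0 ± 0.19 SE, limma adjusted p = 6.4e-08). It was the smallest p of all 12278 genes tested in the cornea and the third largest increase. *Per1* ranked 6 on both counts.

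*Per3* measured 316, 287, 466, 513 and 509 normalized counts in AL corneas and 701, 713, 888, 683 and 834 in CR corneas. The groups again did not overlap, and the gap between the highest AL and the lowest CR library was narrower than for *Per2*. The change was 1.87-fold (1.47 to 2.38; log2 change 0.90 ± 0.17 SE, limma adjusted p = 0.0097), placing *Per3* 299 by size of increase. With each library's share of genes at 0 reads as a covariate, it was 0.67 on the log2 scale and missed the threshold (limma adjusted p = 0.0906).

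Over all genes tested in the cornea, 1.22% were called at an adjusted p under 0.05 with a change over 1.5-fold, and 0.749% were called as higher under CR. All 3 members were in that class. Groups that did not overlap, with CR higher, were found for 2.08% of genes. The median change of all genes was -0.03 on the log2 scale.

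**Figure D1:**
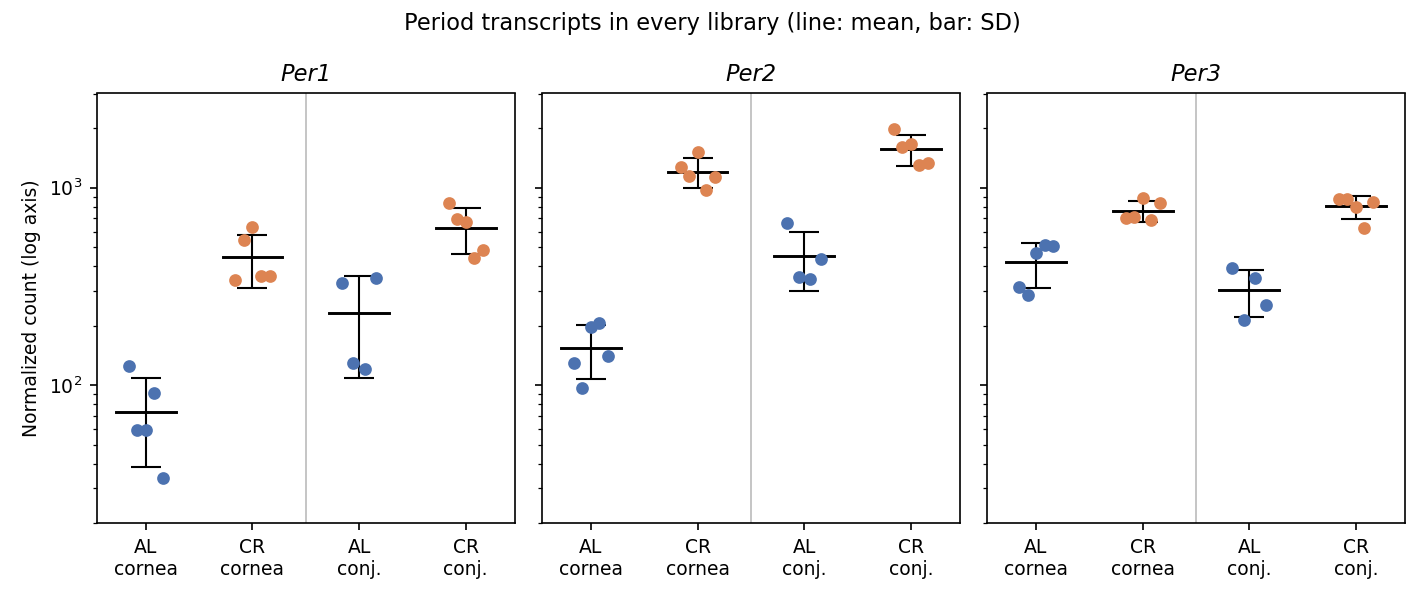
Normalized counts on a log axis for *Per1*, *Per2* and *Per3* in each library, by tissue and diet (blue AL, orange CR; n = 5 per group, 4 for AL conjunctiva; the line is the mean and the bar the SD). In both tissues every CR point of a gene lies above every AL point, and the gap is widest for *Per2* in the cornea, from 207 to 969.

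In the conjunctiva the same direction was seen, with a smaller fold for *Per1* and *Per2* than in the cornea. *Per2* measured 664, 351, 345 and 437 normalized counts in the 4 AL conjunctivas and 1982, 1602, 1663, 1298 and 1328 in the 5 CR conjunctivas, without overlap. It rose 3.58-fold (2.70 to 4.77; log2 change 1.84 ± 0.19 SE, limma adjusted p = 3.3e-04), the second smallest p of 13929 genes tested. *Per3* measured 392, 214, 351 and 254 under AL and 875, 879, 801, 623 and 843 under CR. It rose 2.71-fold (2.06 to 3.56; log2 change 1.44 ± 0.19 SE, limma adjusted p = 0.0020), the sixth smallest p.

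*Per1* measured 329, 130.2, 120.5 and 349 normalized counts in AL conjunctivas and 838, 693, 667, 441 and 484 in CR conjunctivas. The groups did not overlap, yet the AL libraries fell into a low and a high pair. The mean was 232 ± 124 (SD, n = 4) under AL and 625 ± 162 (SD, n = 5) under CR. From mean log2 values the difference was 2.94-fold (1.73 to 5.0, log2 difference 1.55 ± 0.35 SE). Its limma p was 9.8e-04 and its adjusted p 0.117, so *Per1* did not pass the threshold in the conjunctiva. It did not pass under any alternative tried, all of them limma fits (limma adjusted p 0.0655 to 0.310). The paper, which used DESeq2, does list *Per1* among the circadian genes raised by CR in the conjunctiva.

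In the conjunctiva 0.359% of all tested genes were called and 0.223% were called as higher under CR, a class that held 2 of the 3 members. Groups without overlap and with CR higher were found for 1.92% of genes, and for all 3 members. The median change over all genes was -0.02 on the log2 scale.

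**Figure D2:**
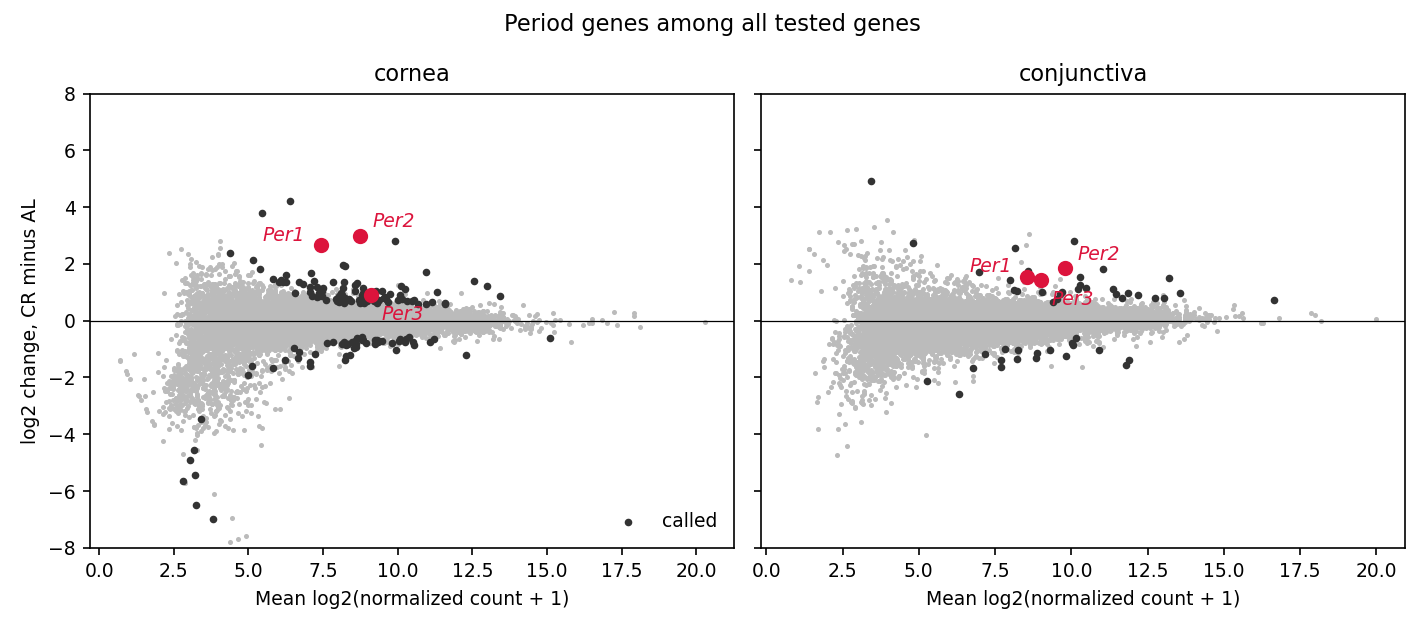
Log2 change (CR minus AL) against mean log2(normalized count + 1) for every tested gene in the cornea (12278) and the conjunctiva (13929), with called genes in black and the *Per* genes in red. *Per1* and *Per2* lie at 2.67 and 3.0 in the cornea, far from the mass of genes, and the 3 members lie close together at 1.44 to 1.84 in the conjunctiva, where *Per1* was not called.

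The members did not move by equal amounts in the cornea. A ratio of 2 transcripts within a library is free of that library's scaling, and constant differences in transcript length cancel in its change, so the ratios were compared between diets by two-sided exact permutation tests, adjusted over 6 ratios. The log2 ratio of *Per2* to *Per3* was -1.28, -1.55, -1.24, -1.31 and -1.84 in AL corneas and 0.86, 0.68, 0.78, 0.50 and 0.43 in CR corneas. It was below 0 in every AL library and above 0 in every CR library. The mean moved by 2.10 (exact permutation p = 0.0079, the smallest that 5 against 5 allows, adjusted p = 0.0238), as a plain ratio from 0.368 to 1.57.

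The log2 ratio of *Per3* to *Per1* fell by 1.76 in the cornea, from 2.58 ± 0.93 to 0.82 ± 0.36 (SD, n = 5 each; exact permutation p = 0.0079, adjusted p = 0.0238), again without overlap. The ratio of *Per2* to *Per1* was 1.14 ± 0.78 under AL and 1.47 ± 0.32 under CR, a difference smaller than the spread among AL libraries (exact permutation p = 0.437, adjusted p = 0.524). In that tissue *Per3* thus stood apart from both of the others, while a change of the *Per2* to *Per1* ratio was not detected.

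In the conjunctiva none of the 3 ratios passed. *Per2* to *Per3* had a log2 ratio of 0.56 ± 0.39 (SD, n = 4) under AL and 0.96 ± 0.21 (SD, n = 5) under CR (exact permutation p = 0.0794, adjusted p = 0.159). *Per3* to *Per1* was 0.51 ± 0.83 and 0.39 ± 0.28 (exact permutation p = 0.794), and its direction turned when AL library 4 was left out, the difference going from -0.12 to 0.22. *Per2* to *Per1* was 1.07 ± 0.54 and 1.36 ± 0.15 (exact permutation p = 0.317, adjusted p = 0.476).

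**Figure D3:**
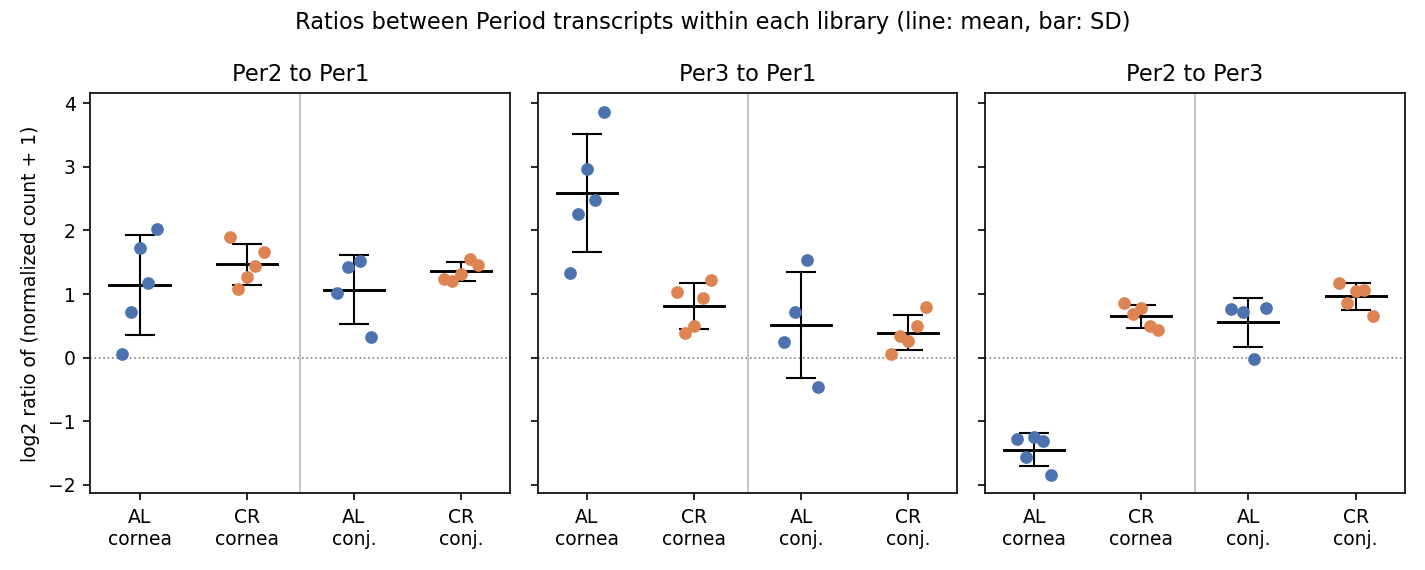
Log2 ratio of normalized counts (plus 1) between pairs of *Per* transcripts in each library, by tissue and diet (blue AL, orange CR; line, mean; bar, SD). The *Per2* to *Per3* panel shows AL corneas between -1.84 and -1.24 and the other 3 groups between -0.02 and 1.18.

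On a per-length scale (normalized counts per kilobase of the longest coding transcript), *Per3* was the highest of the 3 in 5 of 5 AL corneas, at 69.7 ± 18.1 (SD) against 26.5 ± 7.94 for *Per2* and 15.7 ± 7.47 for *Per1*. In CR corneas *Per2* was highest in 5 of 5 libraries, at 207 ± 35.5 against 127 ± 15.2 for *Per3* and 95.4 ± 28.6 for *Per1*. *Per2* also led in all 4 AL conjunctivas (77.0 ± 25.6) and all 5 CR conjunctivas (269.9 ± 47.9). The level of *Per1* and that of *Per3* did not differ beyond their spread in the conjunctiva, at 49.7 ± 26.5 and 50.5 ± 13.7 under AL and 134 ± 34.8 and 134 ± 17.7 under CR. These levels assume reads along the whole transcript. The labels name a whole-transcript kit and the methods one primed at the poly(A) tail, for which length would not enter. By unscaled counts, too, *Per3* led in every AL cornea and *Per2* in every CR library of both tissues, but in AL conjunctiva 4 *Per3* (351) was above *Per2* (345).

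Whether the diet acted differently in the tissues was asked of the changes themselves. The change in the conjunctiva minus that in the cornea was -1.16 ± 0.27 (SE, log2) for *Per2*, -1.11 ± 0.46 for *Per1* and 0.53 ± 0.25 for *Per3*, with 95% confidence intervals of -1.71 to -0.60, -2.06 to -0.17 and 0.02 to 1.05. The intervals left out 0, but over the 11929 genes tested in both tissues no member passed (limma-based adjusted p 0.151, 0.610 and 0.651), where 0.0168% of genes did. Weighting libraries by quality brought *Per2* to -1.27 with an adjusted p of 0.0481. The smaller fold for *Per1* and *Per2* in the conjunctiva went with higher AL values there (232 against 73.5 and 449 against 154 mean normalized counts), though each tissue was scaled in its own table and the levels are not strictly comparable.

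Ratios within a library avoid that limit. They were set against each other between tissues after the values had been seen, as a description with 6 tests. Under AL the log2 ratio of *Per2* to *Per3* was 2.0 higher in the conjunctiva, with no overlap (exact permutation p = 0.0159, the smallest that 4 against 5 allows, adjusted p = 0.0952). Under CR the same ratio differed by 0.31 (exact permutation p = 0.0476, adjusted p = 0.0952). Taken over the titles found in both tissues (4 AL and 4 CR), whose libraries did not deviate together over all genes (r from -0.42 to 0.14), the tissue difference in that ratio was 1.97 ± 0.55 (SD) under AL and 0.33 ± 0.16 under CR (exact permutation p = 0.0286, the smallest this size allows, adjusted p = 0.0857). The gap between tissues was thus 1.64 log2 units smaller in CR samples, a difference that did not pass after adjustment.

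For all 3 members in both tissues, AL libraries were more scattered than CR libraries on the log2 scale. The SD of *Per1* was 0.70 in AL and 0.41 in CR corneas, and 0.83 and 0.38 in the conjunctiva. For *Per2* it was 0.45 and 0.24 in the cornea and 0.44 and 0.25 in the conjunctiva, and for *Per3* 0.40 and 0.17, then 0.40 and 0.21. Among all tested genes the AL spread was the larger for only 34.3% in the cornea and 37.1% in the conjunctiva, with a median ratio of AL to CR spread of 0.80 and 0.81. Leaving out each library in turn kept the AL spread larger in every case but 1, *Per2* in the conjunctiva, where the ratio came to 0.75 without AL 1. The size of the ratio was less steady, since for *Per3* in the conjunctiva it went from 1.95 to 6.54 without CR 4. The other omissions moved a ratio by less than 1.5 times. The wider AL spread was not limited to the *Per* genes. In the cornea the clock gene *Bhlhe41* had an SD of 1.13 in AL and 0.47 in CR, whereas *Arntl* went the other way (0.43 and 0.68). For both, the wider group had fewer reads: *Bhlhe41* 7 to 39 in AL and 251 to 531 in CR, *Arntl* 137 to 326 and 44 to 156. Low counts widen a log2 SD, and their part in these spreads, those of the *Per* genes included, was not tested. No test was made of a difference in spread with 4 or 5 libraries a group.

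**Figure D4:**
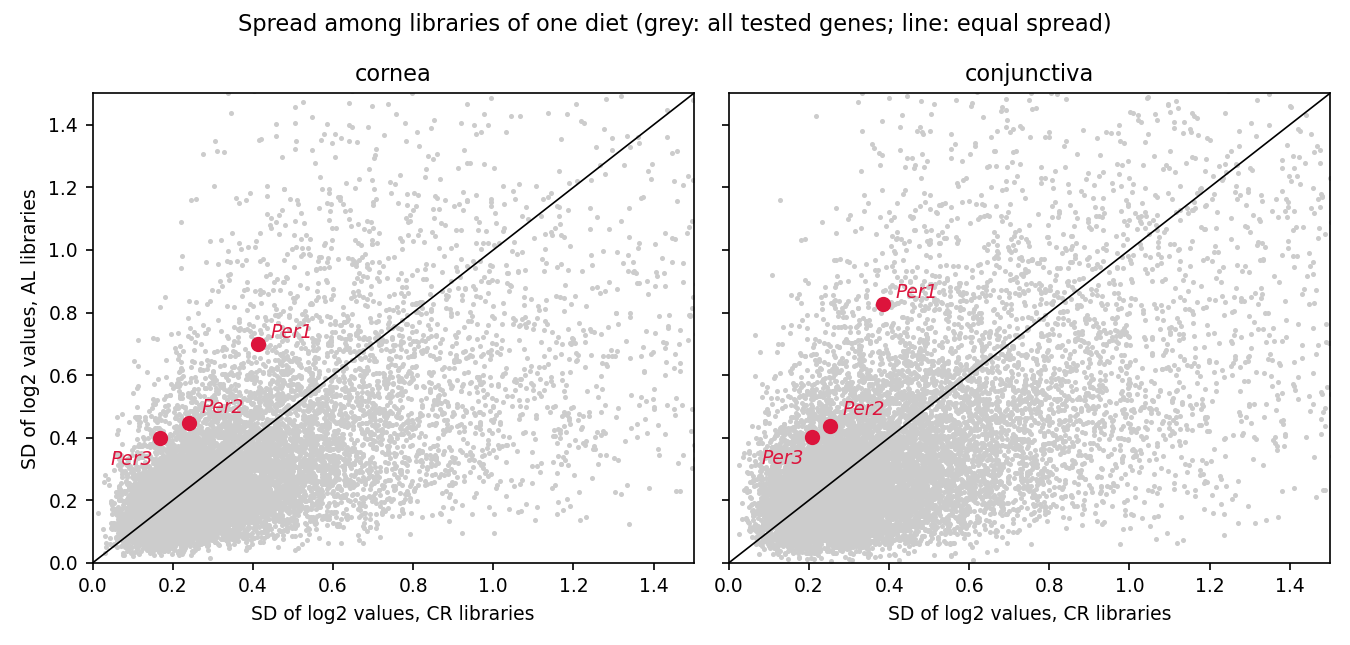
SD of log2(normalized count + 1) among AL libraries against that among CR libraries for all tested genes (grey; 1061 genes in the cornea and 999 in the conjunctiva have an SD beyond the axes) and the *Per* genes (red), with the line of equal spread. All 3 *Per* genes lie above the line in both tissues, where 34.3% and 37.1% of all genes do.

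Other genes of the clock were read from lists chosen for their place around PER, and a gene was counted as risen or fallen at a limma adjusted p under 0.05. Over all genes, 0.953% rose and 0.578% fell in the cornea by this rule, and 0.223% and 0.136% in the conjunctiva. An unadjusted limma p under 0.05 was far more common, at 2219 of 12278 genes in the cornea and 1310 of 13929 in the conjunctiva. The counts of list genes at that cutoff below are to be read beside these. Of 4 activators of E-box transcription, *Arntl* fell in the cornea, from 230.4 ± 64.4 to 87.1 ± 35.6 normalized counts (SD; log2 change -1.46 ± 0.30 SE). The other 3 did not pass there, and by limma none of the 4 passed in the conjunctiva (3 at an unadjusted p under 0.05). *Arntl* went there from 128 to 257 reads in AL libraries to 0 to 35 reads in CR libraries, with 1 of 5 at 0. Its log2 difference of -4.03 ± 0.86 (SE) includes that library at the floor and is not a stable size; the mean normalized counts were 179 ± 39.3 and 16.1 ± 12.3 (SD).

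Most of the listed genes driven through E-boxes were also higher under CR. Of 9 such repressors and outputs, 8 rose and none fell in each tissue, with a median log2 change of 1.34 in the cornea and 1.54 in the conjunctiva. *Dbp*, an activator at D-boxes, rose by 2.82 ± 0.24 and 2.80 ± 0.25 (log2, SE) and its relative *Tef* by 1.72 ± 0.15 and 1.80 ± 0.22. The repressor genes *Bhlhe41* (4.21 ± 0.45 and 2.55 ± 0.23) and *Ciart* (3.78 ± 0.38 and 2.72 ± 0.53) had larger values in the cornea. *Per1* and *Per2* did so too. The test of the difference between tissues covered all genes tested in both, but its values for *Bhlhe41* and *Ciart* are not given here. *Nr1d1* and *Nr1d2*, which encode the REV-ERB repressors of *Arntl*, rose by 1.23 ± 0.25 and 0.76 ± 0.15 in the cornea and by 1.25 ± 0.23 and 1.14 ± 0.19 in the conjunctiva. *Usp2*, a deubiquitinase gene with a strong daily rhythm, rose by 1.34 ± 0.17 and 1.54 ± 0.21. *Hlf* was the member that did not pass in the cornea (0.26 ± 0.10) and *Bhlhe40* the one that did not pass in the conjunctiva (0.34 ± 0.14).

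Genes whose proteins bind PER or set its lifetime were mostly without a call. Of 7 partners, only *Cry2* passed, rising by 1.16 ± 0.24 in the cornea and 1.43 ± 0.23 in the conjunctiva (log2, SE). *Cry1*, whose product is the other cryptochrome that enters the repressor complex, gave 0.15 ± 0.23 and 0.16 ± 0.30. Of 13 tested kinases, phosphatases and ubiquitin ligases that act on PER and CRY, none passed in either tissue by limma (2 in the cornea and 1 in the conjunctiva at an unadjusted p under 0.05). The smallest p values, both in the cornea, were those of casein kinase 1 epsilon, *Csnk1e* (0.47 ± 0.14 in the cornea, 0.40 ± 0.16 in the conjunctiva), which phosphorylates PER, and of *Csnk2b* (-0.34 ± 0.14 and -0.13 ± 0.15). Of 4 factors acting at ROR elements or D-boxes as counterparts, none passed in either tissue by limma (2 and 3 at an unadjusted p under 0.05), with the D-box repressor *Nfil3* at -2.59 ± 1.09 and -2.10 ± 0.53 and *Rorb* at -3.09 ± 1.34 and -0.49 ± 0.42. In CR corneas *Nfil3* had 0 reads in 3 of 5 libraries and *Rorb* in 4 of 5, so their corneal values give no size.

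The other inputs to *Per1* and *Per2* were read in the same way. Of 11 genes induced rapidly through CREs, none passed in either tissue by limma (3 and 3 at an unadjusted p under 0.05), with a median log2 difference of 0.36 in corneas and -0.40 in conjunctivas. The values of *Sik1*, which encodes a kinase that restrains CRE signaling, were 0.46 ± 0.12 and 0.40 ± 0.15, and those of *Junb* were 0.43 ± 0.13 and 0.07 ± 0.23. Of 10 glucocorticoid targets, 2 rose in the cornea and none passed in the conjunctiva by limma (4 at an unadjusted p under 0.05). They were *Fkbp5*, which encodes a chaperone of the glucocorticoid receptor (1.36 ± 0.25 in the cornea, 0.83 ± 0.18 in the conjunctiva), and *Tsc22d3*, which encodes GILZ (1.04 ± 0.18 and 1.03 ± 0.39).

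**Figure D5:**
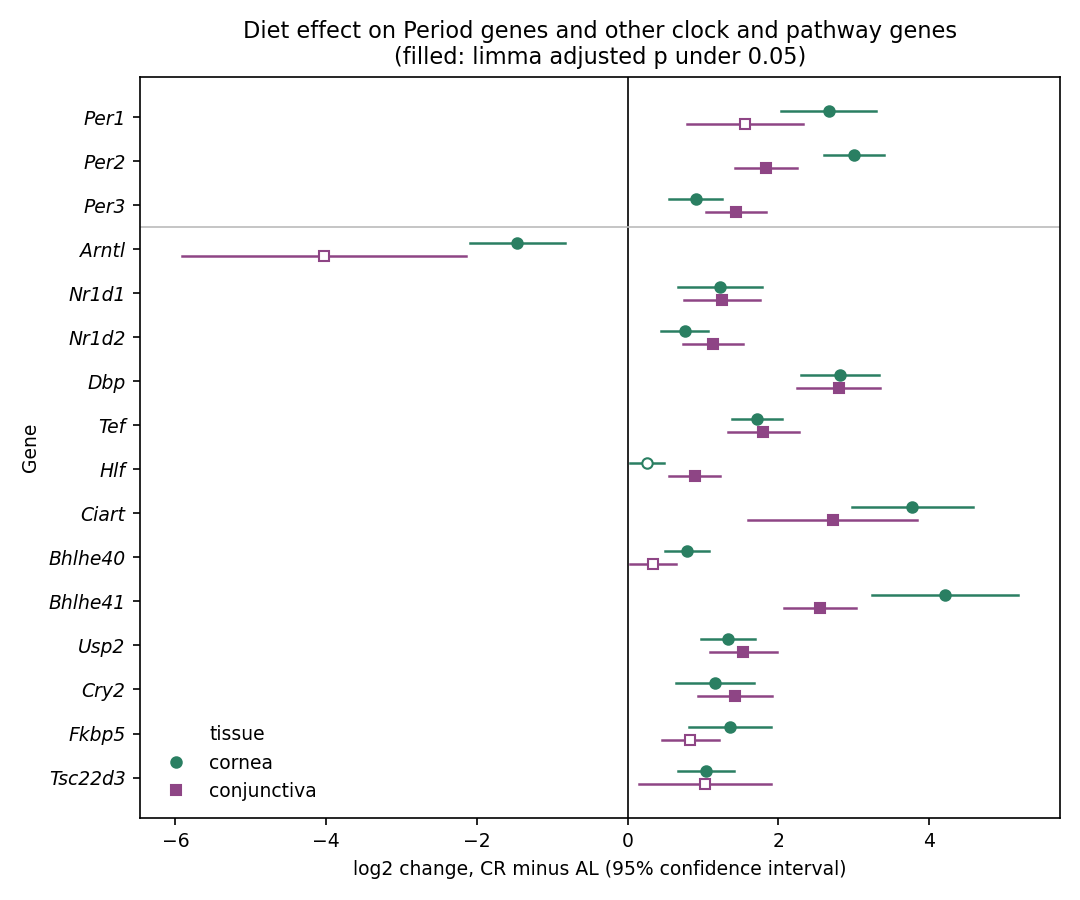
Log2 change (CR minus AL) with its 95% confidence interval for the *Per* genes and for every list gene that passed in at least 1 tissue (circles, cornea; squares, conjunctiva; filled symbols, limma adjusted p under 0.05). The *Per* genes and most E-box genes lie to the right of 0 in both tissues, and *Arntl* lies to the left, with 1 CR conjunctiva at 0 reads.

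The genes whose values ran closest to each member over the 19 libraries were found by the root-mean-square difference of log2 values, centred per gene within each tissue, among 11929 genes. The measure includes the diet difference, so it describes and does not test likeness. Values were not scaled to a gene's own spread, so genes that rise together by unequal amounts lie far apart. For *Per1* the order was *Per2* (0.476), *Tef* (0.584), *Syngr1* (0.630), *Dbp* (0.634) and *Usp2* (0.644), against a median of 1.28 over all genes. For *Per2* it was *Dbp* (0.469), *Per1* (0.476), *Tef* (0.535), *Rgcc* (0.576) and *Cyp2a5* (0.612), against 1.34. *Per3* had another set, *Slc6a6* (0.286), *Nr1d2* (0.317), *Alas1* (0.349), *Eef2k* (0.357) and *Casp14* (0.364), against 0.736. *Slc6a6*, the taurine transporter gene, changed by 1.21 in the cornea and 1.51 in the conjunctiva, and *Alas1*, which encodes the first enzyme of heme synthesis, by 0.63 (not passing) and 1.10. Among the neighbours of *Per1* and *Per2*, *Per3* was number 31 and number 15. Seen from *Per3*, *Per1* (0.864) was only number 8845 and *Per2* (0.806) number 7816, both farther than its median gene (0.736). By this measure a gene that hardly changes can lie nearer to *Per3* than a gene with a larger rise. The order thus does not show opposite or unrelated movement, since every *Per* gene was higher under CR without overlap in both tissues.

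No annotated gene overlapped *Per1*. *Camta1*, whose span contains *Per3* on the same strand, had 222 to 431 reads in corneas, 325 to 500 in conjunctivas, and showed no call (log2 values of 0.12 and 0.31, limma adjusted p = 0.746 and 0.540). *Uts2*, within the *Per3* span by RefSeq, had 0 reads in every library. A noncoding RNA that overlaps *Per2* in RefSeq, *Gm35591*, was not among the genes listed for either tissue under that symbol.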

How the data were processed

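Corneal epithelium and conjunctiva were profiled by bulk RNA sequencing. According to the study's methods, the authors trimmed reads with cutadapt, aligned them to mm10 with STAR, counted genes with HTSeq and normalized the counts with DESeq2; the submitters' processing notes name GRCm39 instead, and versions are not given in the sources used here. Deposited values are log2(count divided by a library size factor, plus 1), made by the authors separately for each tissue. Undoing this gave whole reads for 100.0% of values (tolerance 0.02).

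Genes averaging 10 or more normalized counts were tested with limma 3.58.1 (R 4.3.3; trend and robust options, diet as the only term), with Benjamini-Hochberg adjustment over all tested genes. A gene was called at an adjusted p under 0.05 and a fold over 1.5. Fold changes are on the log2(value + 1) scale, which understates changes of low genes. The difference between tissues was the difference of both changes over its standard error. Ratios were tested in SciPy by exact two-sided permutation of libraries. The genes, pathway lists and tests were chosen with earlier results of these data known. Named genes are the 3 members, each list gene past an adjusted p of 0.05 in a tissue, the 2 smallest p values of lists with none, and 5 neighbours a member; other named genes were chosen after their values were seen. By the methods, several tissues were taken from a mouse and up to 5 mice shared a pen; the labels do not tie libraries to mice or pens, so p-values measure only the spread between these samples. The library kit differs between the labels and the methods, and use of strand in counting is not given.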

Additional observations from a re-analysis of the deposited data

How the results depend on the processing

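The *Per* calls were recomputed with other pseudocounts, filters, scalings (trimmed mean, quantile), voom on recovered reads, array weights, a covariate for the percentage of unread genes, without cornea AL 4 and CR 1, and without each library. The 3 corneal and 2 conjunctival calls held in all of them, apart from *Per3* in the cornea with the covariate (0.67, adjusted p = 0.0906). The log2 change of *Per2* stayed between 2.82 and 3.12 in corneas, and between 1.73 and 2.05 in conjunctivas. The difference of *Per2* between tissues passed only with array weights (-1.27, adjusted p = 0.0481).

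The number of called genes was less steady than the *Per* values. Against 150 in the cornea it was 705 with array weights, 99 with voom, 62 with the covariate, 1212 without AL 4 and CR 1, and 53 to 536 with 1 library left out (536 without AL 4, 309 without CR 1). Against 50 in the conjunctiva it was 149 with array weights and 26 to 127 with 1 library left out (127 without CR 3). The replicate number as a block gave 54 and 12 called genes and changed no *Per* call. Libraries of the same number did not deviate together (r from -0.30 to 0.29 in the cornea, with 1 of 4 closest to its own number, and from -0.06 to 0.05 in the conjunctiva, with 0 of 4), nor did the tissues of one title (-0.42 to 0.14), so the numbers were not used as a block in the reported fits, and the comparisons over shared titles are an alternative only. The cause of these shifts was not tested.

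With 1 library left out, the conjunctival diet difference of the *Per3* to *Per1* ratio ran from -0.44 to 0.22. For *Per2* to *Per1*, the tissue difference under AL ran from -0.34 to 0.18 and the diet effect on the tissue difference from -0.42 to 0.46. The *Per2* to *Per3* tissue difference under CR ran from 0.26 to 0.39 and passed without conjunctiva CR 5 (exact permutation, adjusted p = 0.0476). Depth limits *Per1* most, with 33 to 113 reads in AL corneas.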
